A study of Mus musculus with 6 samples.

Results

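The 44 genes described here encode the protein layers that join a mitotic chromosome to the spindle: the inner centromere network (19 genes), the outer kinetochore (19) and the spindle checkpoint (6). They were taken by symbol from the 55487 gene rows of the series, every listed symbol was found, and all 44 were above the minimum mean of 10 normalized reads that left 18227 rows for testing. RNA came from the subventricular zone of adult mice, the stem cell niche beside the lateral ventricles, after its cells were sorted for a yellow fluorescent reporter. All mice carried the NestinCreERT2 driver and the R26;EYFP reporter on a mixed C57BL/6;Sv/129;FVB/N background. The knockout group was labelled E2F1(-/-);E2F3(F/F) and the heterozygous group E2F1(+/-);E2F3(F/+), with 3 libraries (A, B and C) each. Both groups were 6 to 10 weeks old when tamoxifen gavage began (200 mg/kg per day for 5 days), and both were sampled 10 days after the last dose. Cre follows the Nestin promoter, so E2F3 alleles recombine in Nestin-expressing cells and their progeny, whereas the E2F1 allele is not labelled as floxed. The comparison group is not wild type, since it lacks 1 copy of E2F1 and carries a floxed E2F3 allele exposed to the same Cre. Each library pooled several mice to reach at least 200000 reporter-positive cells, so replicates differ as pools and not as single animals.

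Centromeres are marked by nucleosomes in which CENP-A replaces histone H3. A network of CENP proteins assembles on them and recruits the outer kinetochore, where the KNL1, MIS12 and NDC80 complexes together form the link to microtubules. Checkpoint proteins gather at kinetochores without attached microtubules and hold back the anaphase-promoting complex until all chromosomes are attached. Most of these genes are transcribed in S, G2 or M phase, and in the adult niche dividing cells are mainly activated stem cells, transit-amplifying progenitors and neuroblasts. E2F proteins activate many cell cycle genes, and the study addresses activator E2F factors in the quiescent and activated states of adult stem cells.

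Libraries held 19798675 to 25982361 reads in genes. E2f1, labelled (-/-) in the knockout, had 375, 483 and 516 normalized reads in the knockout libraries (A, B, C), against 1152, 1388 and 1029.5 in the heterozygous libraries, so reads remained in the knockout but its libraries lay below all heterozygous ones. E2f3 had 324, 231 and 245 normalized reads in the knockout libraries (A, B, C), against 293, 205 and 253 in the heterozygous libraries, with overlapping groups, and whole-gene counts do not show whether its floxed exons were removed. Each of 6 lists of cell type markers had reads in every library, and the reporter used for sorting was not examined. All 14 neuroblast markers fell at a limma adjusted p under 0.05, against 8.59% of all tested rows called lower. Their summed levels were 14414 to 18893 in knockout and 81117 to 131436 in heterozygous libraries. Here and below, fewer cells of a type and less RNA per cell cannot be told apart in pooled cells. Of 12 quiescent stem cell and astrocyte markers 3 rose, against 7.23% of all tested rows called higher. Of their log2 differences 0 were negative (median 0.73), and 7 markers were higher at an unadjusted limma p under 0.05. Their sums were 377991 to 648305 in knockout and 282745 to 426254 in heterozygous libraries. Of 12 ependymal markers 8 rose, against the same 7.23%, with sums of 14852 to 64552 in knockout and 9928 to 12289 in heterozygous libraries. None of 10 endothelial, 10 microglial or 10 oligodendrocyte lineage markers was called, although 0, 2 and 1 of their log2 differences were negative. The endothelial sum was 42185 in knockout A and at most 15022 in the other knockout libraries, against 7042 to 9471 in heterozygous libraries. The microglial sum was 18749 in knockout A, against 4781 and 4811 in knockout B and C. In heterozygous C it was 12942, against 3114 and 5303 in heterozygous A and B. Oligodendrocyte lineage sums were 74019 to 92583 in knockout and 47237 to 68475 in heterozygous libraries. No gene of these 6 marker lists was at 0 in all libraries, and their part in the differences below was not tested.

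Centromere, kinetochore and checkpoint transcripts were lower in knockout cells as a body. Of the 44 genes 35 fell and none rose at a limma adjusted p under 0.05, against 8.59% of all tested rows called lower and 7.23% called higher. At an unadjusted p under 0.05, 39 genes were lower and 0 higher, against 16.5% and 16.9% of all tested rows, and edgeR and DESeq2 likewise called 0 higher. The estimate was negative for all 44, with a median log2 difference of -1.54 (quartiles -2.36 and -1.02), against a median of 0.05 over all tested rows. Differences are knockout minus heterozygous on the log2(value + 1) scale throughout. A decrease of at least 4-fold was called for 15 of the genes, against 2.73% of tested rows. The highest knockout library lay below the lowest heterozygous library for 39 of the 44, against 20.2% of tested rows. Summed over the 44 genes, the level was 22177, 25965 and 33690.1 normalized reads in the knockout libraries (A, B, C), against 72371, 92026 and 55732 in the heterozygous libraries. For comparison, the proliferation marker Mki67 had 397, 203 and 395 normalized reads in the knockout libraries (A, B, C), against 3693, 3763 and 2893 in the heterozygous libraries (10.8-fold lower, adjusted p = 0.000886).

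**Figure D1:**
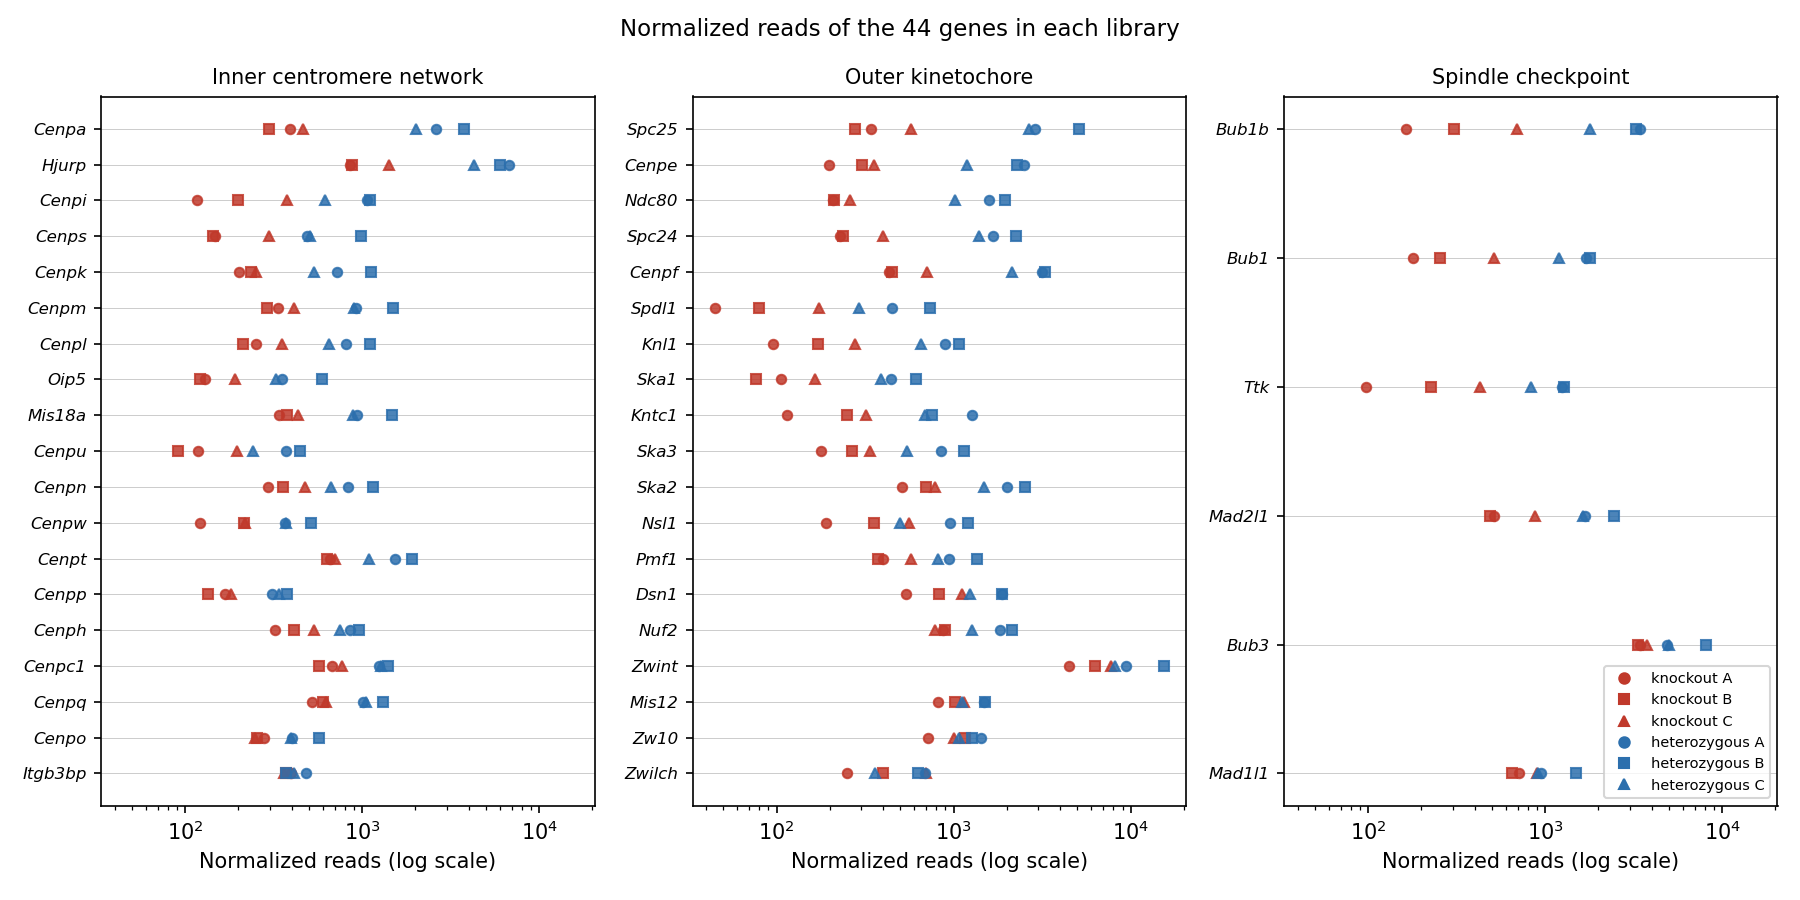
Normalized reads of each gene in the 6 libraries, on a log axis, with 1 panel per layer and genes ordered by their difference. Knockout libraries (red) lie left of heterozygous libraries (blue) without overlap for 39 of the 44 genes, and the gap closes toward Itgb3bp, Zwilch and Mad1l1.

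The libraries of a genotype shared an order. Knockout C was the highest knockout library for 40 of the 44 genes, against 42.6% of all tested rows. Heterozygous B was the highest heterozygous library for 37, against 37.7% of tested rows. Heterozygous C was the lowest for 37, against 6469 of the 18227 tested rows. Knockout A was the lowest knockout library for 26 genes and knockout B for 15, against 7396 and 4544 of the 18227 tested rows. Knockout A also had the highest ependymal sum, 64552, against 40223 in knockout B and 14852 in knockout C. Without knockout A 31 of the 44 genes fell, against 7.01% of the rows tested in that fit. The 3 knockout libraries therefore sit at different levels of the same genes, with knockout C closest to the heterozygous group.

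In the inner centromere network 17 of 19 genes fell, against 8.59% of all tested rows, with a median log2 difference of -1.40. Cenpa and Hjurp had the largest decreases of the layer. Cenpa, the centromeric histone H3 variant, had 390.5, 297 and 464 normalized reads in the knockout libraries (A, B, C), against 2622, 3766 and 2011 in the heterozygous libraries. It fell 7.16-fold (log2 difference -2.84 ± 0.27, SE; adjusted p = 0.000904), so that the knockout mean was 13.7% of the heterozygous mean. Hjurp, the chaperone that deposits CENP-A, had 859, 874 and 1422 normalized reads in the knockout libraries (A, B, C), against 6772, 5984 and 4279.9 in the heterozygous libraries. It fell 5.45-fold (-2.45 ± 0.26, adjusted p = 0.00107), and in both genes the lowest heterozygous library was far above the highest knockout library. Mis18a and Oip5, which encode subunits of the Mis18 complex that licenses CENP-A loading, fell 2.81-fold and 2.83-fold.

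The sequence around the Cenpa start is shown because it carries, in capitals, the letters TTTGAA of the cell cycle genes homology region (CHR). The CHR is an element bound by the DREAM and MuvB complexes in promoters of late cell cycle genes. Cenpl, whose product is the partner of CENP-N, is shown beside it because it also carries letters of the E2F site, searched as TTTCCCGC or TTTCGCGC or TTTGGCGC or TTTGCCGC. Both strands were searched, and capitals mark a CHR or E2F match, which reads as its reverse complement (TTCAAA for the CHR) where it lies on the opposite strand. Each window is a RefSeq sequence of GRCm38.p6, read 5′ to 3′ on the gene's strand, from 250 bases before to 50 bases after the start.
Cenpa, chr5:30666636-30666935, plus strand: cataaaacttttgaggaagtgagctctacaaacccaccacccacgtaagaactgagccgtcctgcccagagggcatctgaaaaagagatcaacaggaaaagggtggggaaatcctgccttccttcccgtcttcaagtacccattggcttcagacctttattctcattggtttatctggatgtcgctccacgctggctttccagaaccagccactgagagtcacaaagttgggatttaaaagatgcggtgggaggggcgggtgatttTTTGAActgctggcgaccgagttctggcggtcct
Cenpl, chr1:161070517-161070816, plus strand: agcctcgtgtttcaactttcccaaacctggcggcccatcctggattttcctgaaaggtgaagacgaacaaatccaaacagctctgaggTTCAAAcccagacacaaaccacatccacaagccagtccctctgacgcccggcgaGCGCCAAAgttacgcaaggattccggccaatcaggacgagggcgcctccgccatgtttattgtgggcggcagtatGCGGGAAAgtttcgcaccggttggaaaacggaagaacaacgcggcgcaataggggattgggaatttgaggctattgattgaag

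Genes of the other inner complexes fell by smaller amounts than Cenpa and Hjurp. In the CENP-H/I/K/M group, which links the centromeric nucleosome to the outer layer, Cenpi had 117, 199 and 374 normalized reads in the knockout libraries (A, B, C), against 1060.3, 1104 and 621 in the heterozygous libraries (4.34-fold, adjusted p = 0.0126). Its knockout libraries ranged over 3.19-fold, the widest spread of the inner layer. Cenpk, Cenpm and Cenph fell 3.29-fold, 3.14-fold and 2.04-fold. Cenps, a histone-fold partner of CENP-T and CENP-W that also works in DNA repair, had 148, 144 and 297 normalized reads in the knockout libraries (A, B, C), against 488, 983 and 511 in the heterozygous libraries (3.37-fold, adjusted p = 0.0178). Cenpt and Cenpw, the DNA-binding histone-fold pair that recruits NDC80, fell 2.22-fold and 2.30-fold, and Cenpl and Cenpn, a pair of which CENP-N recognises CENP-A nucleosomes, fell 3.14-fold and 2.34-fold. Cenpc1, the CENP-C scaffold, fell 1.96-fold, averaging 669.8 ± 98.1 in knockout and 1303 ± 82.2 in heterozygous cells (SD, n = 3 each).

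The CENP-O/P/Q/U/R group held the 3 least negative differences of the layer. Cenpu and Cenpp fell 2.64-fold and 2.11-fold, and Cenpq had 521, 598 and 622 normalized reads in the knockout libraries (A, B, C), against 1011, 1314 and 1058 in the heterozygous libraries (1.93-fold, adjusted p = 0.0171). Cenpo had 281, 254 and 248 normalized reads in the knockout libraries (A, B, C), against 404, 574 and 396 in the heterozygous libraries. Its groups did not overlap, but the log2 difference of -0.79 ± 0.25 missed the threshold (adjusted p = 0.0608). Itgb3bp, which encodes CENP-R and is also known as a coregulator of nuclear receptors and integrin β3, had 396, 371 and 361 normalized reads in the knockout libraries (A, B, C), against 482, 373 and 409.8 in the heterozygous libraries. Its groups overlapped, with a log2 difference of -0.16 ± 0.23 (adjusted p = 0.658), the smallest of the 44. Of the 44 genes 13 share exon bases with a gene on the opposite strand, in this group Cenpu (26.7% of its bases, with Primpol), Cenpo (22.5%, with Adcy3 and Ptrhd1), Cenpp (12.6%, with Ippk and Aspn), Itgb3bp (8.59%) and Cenpq (3.65%). The others are Ska2 (10.1%), Oip5 (9.67%), Mis12 (7.69%), Zwilch (5.93%), and Cenpk, Ska3, Mad1l1 and Cenpt with under 5% each. The strand setting of the counting is not given in the sources used here, so those reads cannot be assigned with certainty. Without knockout B, heterozygous A and heterozygous B, 7, 8 and 6 inner genes fell, and the share of all tested rows called lower was 3.23%, 3.19% and 2.55%, against 8.59% with all libraries.

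In the outer kinetochore 14 of 19 genes fell, against 8.59% of all tested rows, with a median log2 difference of -1.67. A decrease of at least 4-fold was called for 9, against 2.73% of tested rows. The NDC80 complex, the main microtubule coupler, is a rod of 4 proteins present in equal amounts, yet its transcripts moved unequally. Spc25 had 342, 279 and 577 normalized reads in the knockout libraries (A, B, C), against 2890.4, 5099 and 2654 in the heterozygous libraries, and fell 8.90-fold (-3.15 ± 0.33, adjusted p = 0.00105), the largest decrease of the 44. Ndc80 had 209.5, 211 and 260.1 normalized reads in the knockout libraries (A, B, C), against 1593, 1945 and 1018 in the heterozygous libraries, and fell 6.47-fold (-2.69 ± 0.27, adjusted p = 0.00101). Spc24 had 229, 236 and 399.7 normalized reads in the knockout libraries (A, B, C), against 1671, 2256 and 1387 in the heterozygous libraries, and fell 6.21-fold (adjusted p = 0.00115). These genes had knockout means of 11.3 to 16.3% of the heterozygous means, with no overlap between groups.

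Nuf2, whose product forms the microtubule-binding head together with Ndc80, had 869.8, 893 and 789 normalized reads in the knockout libraries (A, B, C), against 1831, 2147 and 1266 in the heterozygous libraries. It fell 2.01-fold (-1.01 ± 0.23, adjusted p = 0.0205), to 48.7% of the heterozygous mean, and its call was lost without knockout B, heterozygous A or heterozygous B. The ratio of Nuf2 to Ndc80 normalized reads was 4.15, 4.23 and 3.04 in the knockout libraries, against 1.15, 1.10 and 1.24 in the heterozygous libraries. The ratio of Spc24 to Ndc80 was 1.09, 1.12 and 1.54 in the knockout libraries, against 1.05, 1.16 and 1.36 in the heterozygous libraries. The Nuf2 ratio was thus higher in every knockout library, while the Spc24 ratio overlapped between genotypes. These pairs were picked after their values were seen and are given without a test. Per kb of exon, Nuf2 averaged 134 normalized reads in knockout and 276 in heterozygous cells, and Ndc80 34.9 and 234. The lengths are those of all annotated exons merged, so a gene with unused exons is understated.

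**Figure D2:**
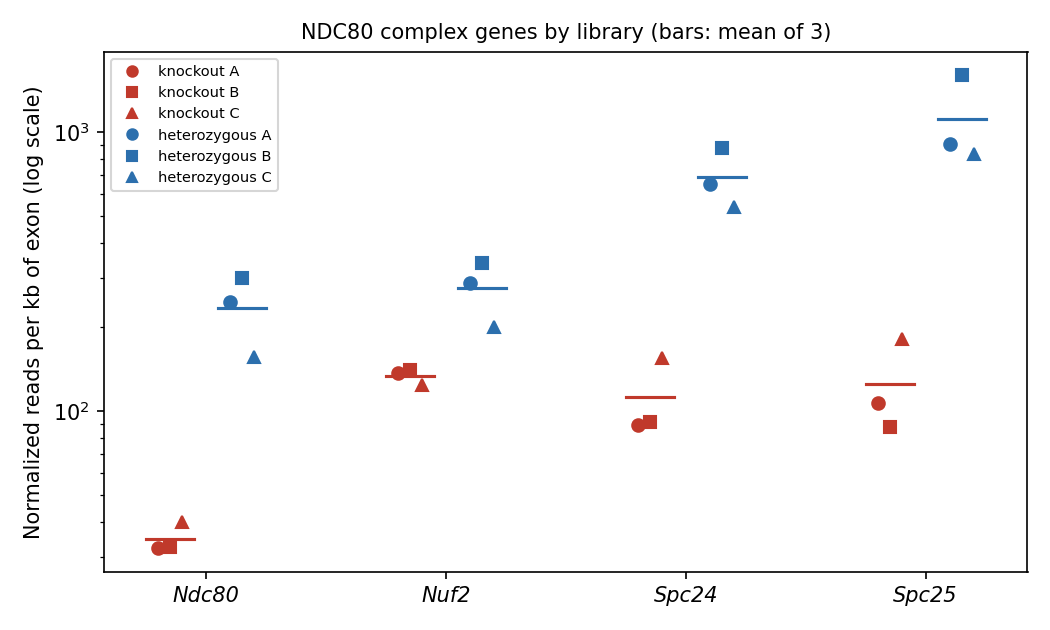
Normalized reads per kb of exon (log axis) of the NDC80 complex genes in each library, with knockout left of heterozygous and a bar at the mean of 3. Ndc80 lies below Nuf2 in every library, by a small gap in heterozygous libraries and a wider gap in all 3 knockout libraries.

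The start regions of the 3 NDC80 complex genes with a RefSeq window are shown to set the motif content beside these values. Spc25 and Ndc80 carry the CHR letters just after the start, whereas the Nuf2 window holds neither a CHR nor an E2F match.
Spc25, chr2:69206164-69206463, minus strand: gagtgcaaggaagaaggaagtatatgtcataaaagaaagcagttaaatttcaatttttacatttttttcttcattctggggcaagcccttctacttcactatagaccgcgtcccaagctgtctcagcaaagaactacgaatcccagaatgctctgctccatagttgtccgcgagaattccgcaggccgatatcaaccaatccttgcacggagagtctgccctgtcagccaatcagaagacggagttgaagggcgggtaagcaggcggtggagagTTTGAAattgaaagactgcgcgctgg
Ndc80, chr17:71526808-71527107, minus strand: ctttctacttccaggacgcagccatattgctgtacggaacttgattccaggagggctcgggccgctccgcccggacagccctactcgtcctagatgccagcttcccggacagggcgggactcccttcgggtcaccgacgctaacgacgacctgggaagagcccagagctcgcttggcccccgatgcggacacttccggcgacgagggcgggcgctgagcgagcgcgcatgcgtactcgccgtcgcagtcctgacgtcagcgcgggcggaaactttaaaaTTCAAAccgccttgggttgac
Nuf2, chr1:169531415-169531714, minus strand: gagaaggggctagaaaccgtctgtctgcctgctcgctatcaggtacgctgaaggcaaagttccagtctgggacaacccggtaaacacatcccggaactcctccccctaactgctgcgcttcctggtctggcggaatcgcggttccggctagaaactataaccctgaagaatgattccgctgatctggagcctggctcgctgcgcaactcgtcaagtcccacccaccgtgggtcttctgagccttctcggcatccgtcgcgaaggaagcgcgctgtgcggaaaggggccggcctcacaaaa

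The other microtubule-facing genes fell as well. Cenpe, a plus-end kinesin of the corona, had 199, 305 and 355 normalized reads in the knockout libraries (A, B, C), against 2504, 2277 and 1196 in the heterozygous libraries (6.80-fold, adjusted p = 0.00154). Cenpf, a large corona protein, fell 5.46-fold, averaging 527 ± 153 in knockout and 2853 ± 612 in heterozygous cells (SD, n = 3 each). Ska1, Ska2 and Ska3, which encode the complex that keeps NDC80 on depolymerising ends, fell 4.24-fold, 2.99-fold and 3.19-fold. Knl1, the scaffold on which BUB proteins dock, fell 5.13-fold, averaging 182 ± 91.3 in knockout and 872 ± 206 in heterozygous cells (SD, n = 3 each). Kntc1, the large subunit of the RZZ complex, and Spdl1, the dynein adaptor Spindly that RZZ recruits, fell 4.18-fold and 5.32-fold. Spdl1 rested on as few as 41 reads in knockout A, the lowest read number of any of the 44 genes.

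Genes of the MIS12 complex and some subunits of RZZ changed less or were not called. Pmf1 and Dsn1 fell 2.28-fold and 2.06-fold. Dsn1 lies 2.44 Mb from E2f1 on chromosome 2, the closest of the 44 to either targeted gene. Nsl1 had 189.8, 357 and 557 normalized reads in the knockout libraries (A, B, C), against 950.3, 1214 and 499.8 in the heterozygous libraries, with knockout C above heterozygous C (log2 difference -1.31 ± 0.43, adjusted p = 0.0667). Mis12 had 815, 1019 and 1145 normalized reads in the knockout libraries (A, B, C), against 1492, 1497 and 1114 in the heterozygous libraries (-0.46 ± 0.22, adjusted p = 0.165). Knockout C lay above heterozygous C for both genes, while knockout A lay below all heterozygous libraries. Zw10, an RZZ subunit that also serves membrane traffic, had 718, 1162 and 1006 normalized reads in the knockout libraries (A, B, C), against 1433, 1267 and 1074 in the heterozygous libraries (-0.40 ± 0.23, adjusted p = 0.247). Zwilch, the remaining RZZ subunit, had 251, 401 and 700.2 normalized reads in the knockout libraries (A, B, C), against 693, 631 and 359.8 in the heterozygous libraries (-0.39 ± 0.39, adjusted p = 0.521). Knockout C had the highest Zwilch value of all 6 libraries. Zwint, which binds KNL1 and is also known from neurons, had 4496, 6262 and 7762 normalized reads in the knockout libraries (A, B, C), against 9467, 15355 and 8167 in the heterozygous libraries. Its groups did not overlap, and its log2 difference was -0.81 ± 0.28 (adjusted p = 0.0771). In the outer layer 9, 8 and 7 genes fell without knockout B, heterozygous A and heterozygous B, fits in which 3.23%, 3.19% and 2.55% of all tested rows were called lower.

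**Figure D3:**
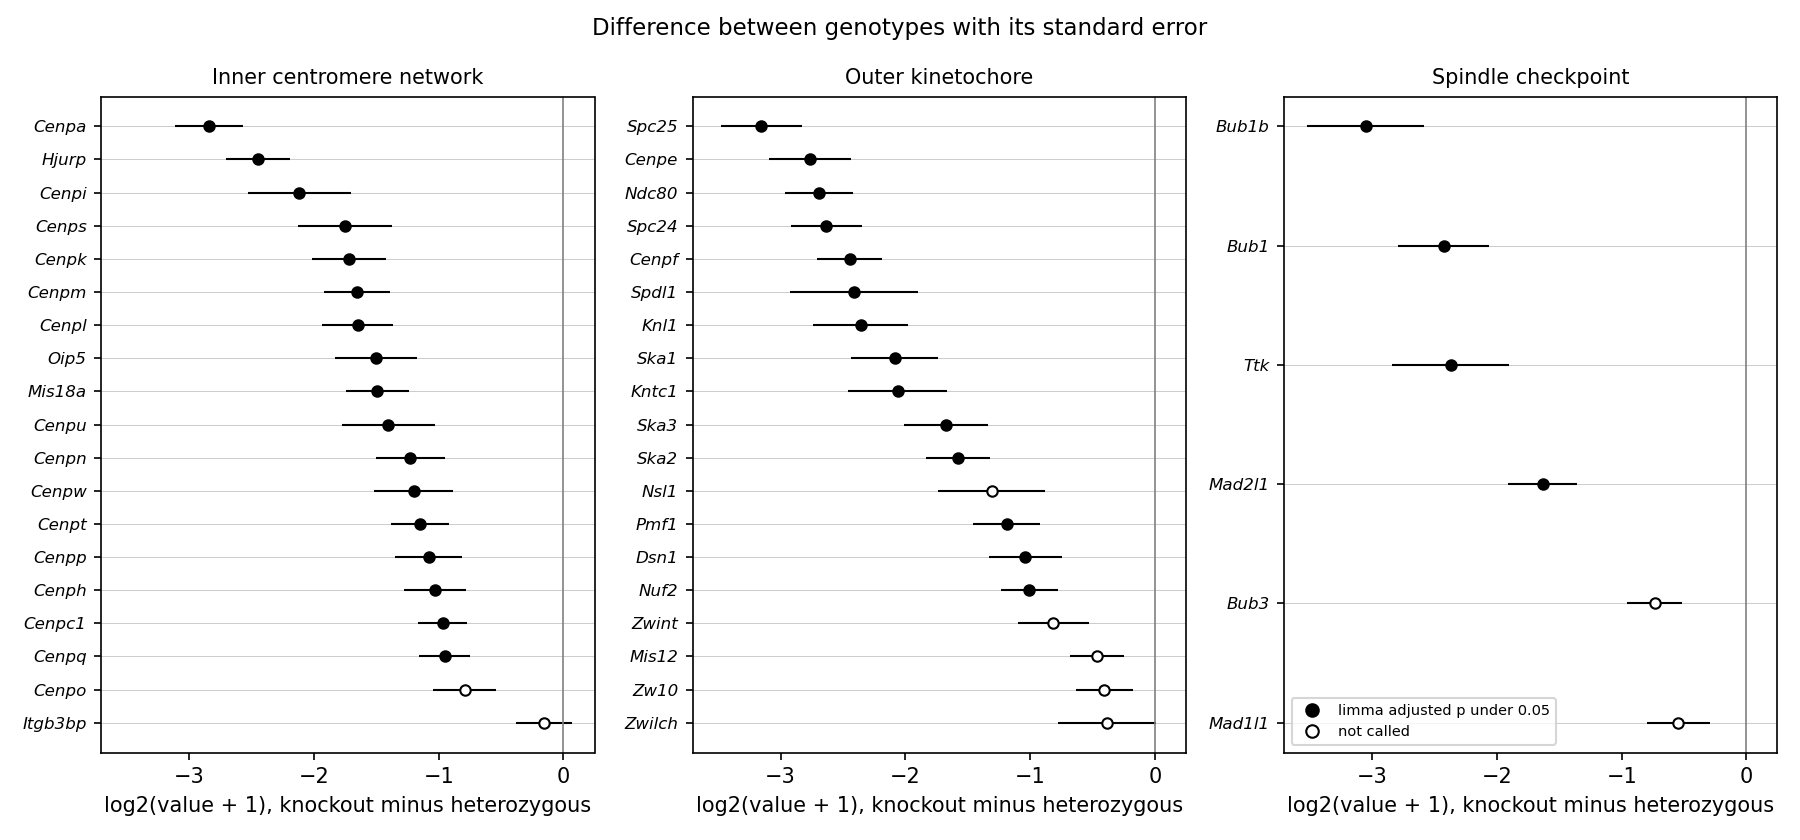
Log2 difference (knockout minus heterozygous) of each gene with its standard error, by layer. Filled points passed a limma adjusted p under 0.05 (17 of 19, 14 of 19 and 4 of 6 genes), and all 44 points lie below 0.

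In the spindle checkpoint 4 of 6 genes fell, against 8.59% of all tested rows, with a median log2 difference of -2.00. Bub1b encodes BubR1, part of the complex that blocks Cdc20. It had 163, 306 and 698 normalized reads in the knockout libraries (A, B, C), against 3430.1, 3279.6 and 1794 in the heterozygous libraries, and fell 8.30-fold (-3.05 ± 0.47, adjusted p = 0.00472). Bub1, a kinase that docks on KNL1, had 179, 254 and 517 normalized reads in the knockout libraries (A, B, C), against 1708, 1788 and 1205 in the heterozygous libraries (5.38-fold, adjusted p = 0.00408). Ttk, the Mps1 kinase that starts checkpoint signalling, had 97.6, 225 and 430.1 normalized reads in the knockout libraries (A, B, C), against 1253, 1274 and 832 in the heterozygous libraries (5.17-fold, adjusted p = 0.0130). In these genes knockout A was lowest and knockout C highest, over a 4.27-fold range for Bub1b, 2.89-fold for Bub1 and 4.41-fold for Ttk. The median range over the 44 genes was 1.65-fold among knockout and 1.66-fold among heterozygous libraries. Ttk was not called without heterozygous A or heterozygous B.

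Mad2l1, which encodes the Mad2 protein that captures Cdc20, had 513, 489.7 and 882 normalized reads in the knockout libraries (A, B, C), against 1674, 2439 and 1631 in the heterozygous libraries, and fell 3.10-fold (-1.63 ± 0.28, adjusted p = 0.00690). Its partner Mad1l1, the Mad1 scaffold, had 711, 647 and 905 normalized reads in the knockout libraries (A, B, C), against 945, 1503 and 912 in the heterozygous libraries. The difference of -0.55 ± 0.25 was not called (adjusted p = 0.161), although the lowest heterozygous library was just above the highest knockout library. Bub3, the WD-repeat protein that carries Bub1 and BubR1 to kinetochores, had 3442, 3338 and 3755 normalized reads in the knockout libraries (A, B, C), against 4886, 8083 and 5031 in the heterozygous libraries. Its difference of -0.73 ± 0.22 lay at the threshold (adjusted p = 0.0513), with no overlap between groups. The Bub3 to Bub1 ratio was 19.3, 13.2 and 7.26 in the knockout libraries, against 2.86, 4.52 and 4.17 in the heterozygous libraries, and the Mad1l1 to Mad2l1 ratio was 1.38, 1.32 and 1.03 in the knockout libraries, against 0.565, 0.616 and 0.559 in the heterozygous libraries. Both ratios, also picked after the values were seen, were higher in every knockout library than in any heterozygous library.

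The windows of Bub1b and Bub1 are shown because these checkpoint kinase family genes fell together but differ in their letters. Bub1b holds the CHR letters 41 bases after the start. Bub1 has no TTTGAA, and its capitals mark the variant TTCGAA, which is marked in Bub1b too.
Bub1b, chr2:118597961-118598260, plus strand: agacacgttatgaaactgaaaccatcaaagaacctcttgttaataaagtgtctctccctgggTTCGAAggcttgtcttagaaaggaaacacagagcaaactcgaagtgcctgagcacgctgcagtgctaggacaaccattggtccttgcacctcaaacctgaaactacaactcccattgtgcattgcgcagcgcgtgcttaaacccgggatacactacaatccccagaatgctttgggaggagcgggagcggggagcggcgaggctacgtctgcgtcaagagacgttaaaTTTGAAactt
Bub1, chr2:127831810-127832109, minus strand: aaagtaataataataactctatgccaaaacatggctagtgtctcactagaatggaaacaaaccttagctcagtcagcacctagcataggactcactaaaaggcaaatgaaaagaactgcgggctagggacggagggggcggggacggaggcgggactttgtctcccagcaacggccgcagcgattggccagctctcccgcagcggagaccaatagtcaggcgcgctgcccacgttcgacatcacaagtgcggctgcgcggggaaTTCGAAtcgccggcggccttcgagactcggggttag

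RefSeq windows were found for 40 of the 44 genes, 44 windows in all. Counted by gene, 18 of the 40 held the CHR letters TTTGAA in a window, against 20.2% of all 27025 genes with a window of this length. Among genes that fell at least 4-fold 10 of 13 held them. Among genes that fell by less 6 of 20 did, and among genes not called 2 of 7, Zw10 and Bub3. Positions after the start were counted separately. A TTTGAA within the first 50 bases after the start was present in 9 of 13 windows of the genes that fell at least 4-fold. These were Cenpa, Hjurp, Spc25, Ndc80, Cenpf, Spdl1, Knl1, Bub1b and Ttk. It was present in 1 of the other 31 windows, that of Oip5, and in 2.25% of all windows. Cenpe, Cenpi and Bub1 fell at least 4-fold and had no TTTGAA in their windows. Counted by window, the E2F letters occurred in 5 windows, those of Cenps, Cenpm, Cenpl, Mis18a and Dsn1 (11.4%, against 2.26% of all windows), and in 0 of the 13 windows of genes that fell at least 4-fold. The CCAAT box, bound by NF-Y, occurred in 29 windows (65.9%, against 37.4%). It overlapped the CHR letters in Cenpw and Kntc1. The variant TTCGAA occurred in 4 windows, those of Cenpm, Mis18a, Bub1b and Bub1, against 1.56% of all windows. The motifs were searched on both strands, and the division at the start was chosen after the positions were seen. Matches are letters in a window and not measured binding.

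**Figure D4:**
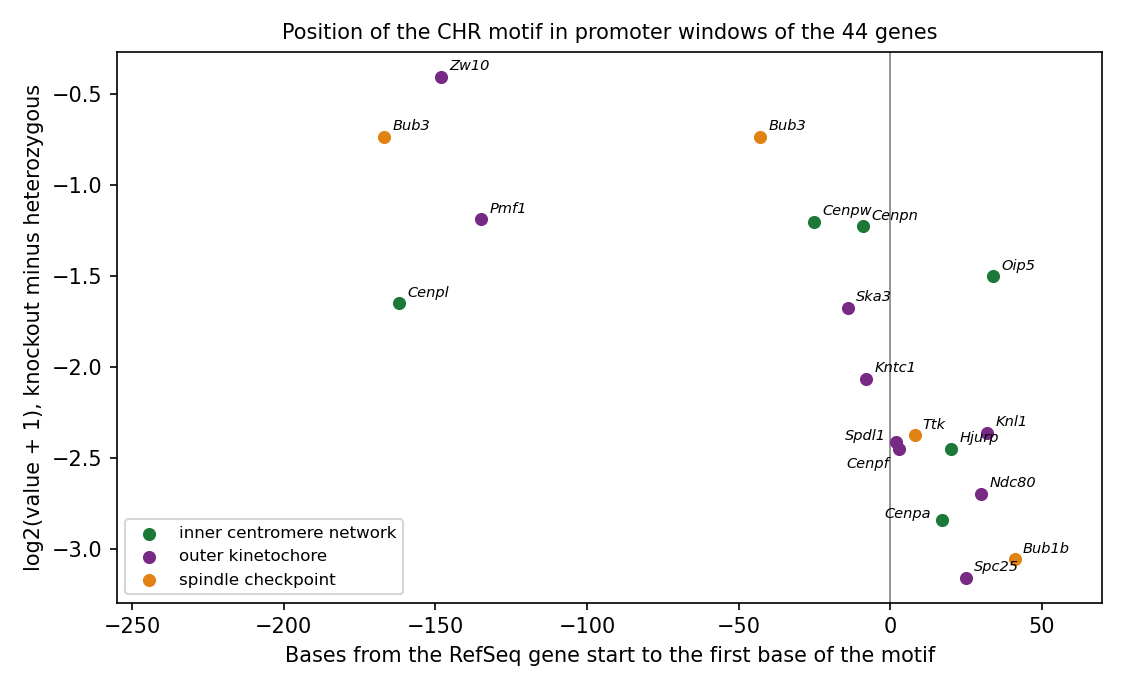
Distance of each CHR match from the RefSeq start (in bases, negative before the start) against the log2 difference of its gene, coloured by layer. Matches after the start belong to Oip5 and to genes with log2 differences below -2, and matches more than 100 bases before it to Cenpl, Pmf1, Zw10 and a window of Bub3.

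Other genes that act at kinetochores, a list of 29, were read in the same way. Of these 16 fell, against 8.59% of all tested rows called lower, with a median log2 difference of -1.25. None was called higher by limma. At an unadjusted p under 0.05 in limma, 2 were higher, against 16.9% of all tested rows. Kif2c, the microtubule-depolymerising kinesin MCAK, had 185, 257 and 378 normalized reads in the knockout libraries (A, B, C), against 2560.5, 3334 and 1486 in the heterozygous libraries (8.86-fold, adjusted p = 0.00120). The kinases Aurkb and Plk1 fell 7.66-fold and 7.06-fold (adjusted p = 0.000970 and 0.00175). The 3 least negative differences of the list were those of Clasp2, Ckap5 and Nudc, whereas Clasp1 was called lower (1.79-fold, adjusted p = 0.0446). Clasp2 had 4235, 5403 and 5887 normalized reads in the knockout libraries (A, B, C), against 4209, 2894 and 3218 in the heterozygous libraries (log2 difference 0.59 ± 0.21, adjusted p = 0.0812), and Ckap5 and Nudc had log2 differences of 0.49 ± 0.20 and 0.25 ± 0.28 (adjusted p = 0.123 and 0.576). Side by side with the 35 of 44 genes here, 6 of 10 MCM helicase genes fell (median -1.15). So did 10 of 10 condensin and mitotic chromosome genes (median -1.86) and 4 of 13 cohesin genes (median -0.54). Each of these shares lay above the 8.59% of all tested rows called lower. Differences between these lists were not tested.

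Ordered by level per kb of exon, the 44 genes were rearranged between genotypes. Zwint ranked 1 in both, at 1392 normalized reads per kb in knockout and 2480.0 in heterozygous cells. Spc25 ranked 15 in knockout and 2 in heterozygous cells, at 125 and 1113 per kb. Bub1b ranked 23 and 7, and Cenpa 29 and 10. Mis12 stood higher in the knockout order, ranking 3 and 12 at 331 and 456 per kb, and Zw10 ranked 4 and 18. The transcripts that led the list in knockout cells were thus Zwint, Bub3, Mis12 and Zw10, none of which was called by limma. Zwint and Bub3 also ranked 1 and 3 in heterozygous cells, and their groups did not overlap. Genes that fall least rise in such an order, so the rearrangement restates the differences given above. Ranks are of means, and neighbours in the order were not tested against each other.

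Of the 44 genes 39 were lower in the authors' deposited table and 0 higher, at an adjusted p under 0.05, against 6.83% of its rows called lower. The 35 genes called here were all among them. The added genes were Cenpo, Nsl1, Zwint and Bub3, with adjusted p of 0.0213, 0.00874, 0.0241 and 0.0140 in the authors' deposited table. edgeR on the recovered reads called the same 35 genes, against 8.25% of its tested rows called lower. Leaving out a library changed the count more. It was 20 without knockout B, 19 without heterozygous A and 16 without heterozygous B. In these fits 3.23%, 3.19% and 2.55% of all tested rows were called lower, against 8.59% with all 6 libraries. The count was 38 without knockout C and 34 without heterozygous C, against 11.3% and 7.55% of tested rows called lower. The estimate stayed negative for all 44 genes whichever library was left out. A core of 16 genes was called under each of the 16 fits run: Cenpa, Hjurp, Cenpk, Cenpm, Cenpl, Mis18a, Spc25, Cenpe, Ndc80, Spc24, Cenpf, Ska1, Ska2, Bub1b, Bub1 and Mad2l1.

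**Figure D5:**
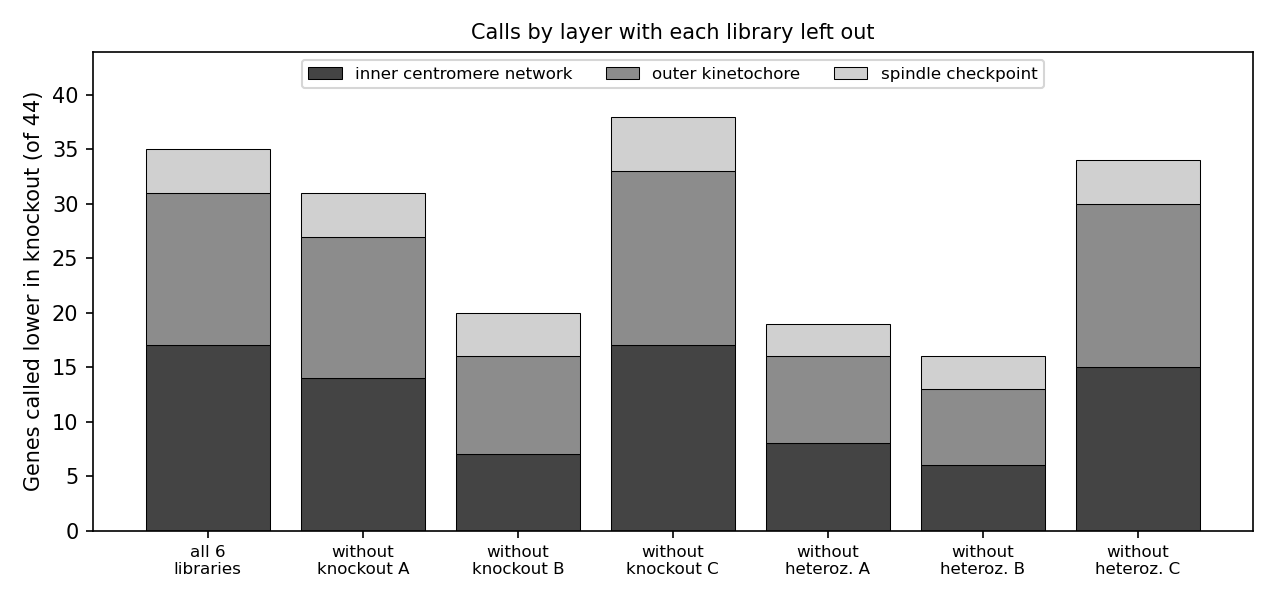
Number of the 44 genes called lower in knockout (limma adjusted p under 0.05), stacked by layer, with all 6 libraries and with each library left out. The bars stand at 31, 20 and 38 without knockout A, B and C, at 19, 16 and 34 without heterozygous A, B and C, and at 35 with all.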

How the data were processed

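Sorted-cell RNA was amplified with SMART-Seq v4 and made into Nextera XT libraries, per the labels' protocols. The submitters' processing notes name HISAT2, Subread, featureCounts, DESeq2 and GRCm38 without versions. The deposited signal values are, by their steps, read counts divided by size factors, and the authors' deposited table adds log2 fold changes, a Wald score and p-values. Values were whole multiples of 1 read in all 6 libraries (100.0% within 0.01 reads). Rows with a mean of at least 10 were tested with limma 3.58.1 (mean-variance trend, log2(value + 1), genotype only, two-sided, Benjamini-Hochberg over 18227 rows, threshold 0.05). Alternatives were edgeR 4.0.16 and DESeq2 1.42.0 on recovered reads, other pseudocounts and filters, and each library left out. Scripts were tested on simulated data with 200 changed genes. There limma called 13.4% of the 2-fold and 57.1% of the 4-fold changes, and 5.80% of its calls were false. In the real data 2883 of 18227 rows were called, more than the simulation changed, so these rates need not hold there. A gene not called is still not shown to be unchanged. No pair of libraries within a genotype matched within sampling noise. The labels call the libraries biological replicates.

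The members and lists were chosen with earlier results of these data known. Values per library are given for the 4 most and 3 least negative genes of each layer, all checkpoint genes, genes not called, Cenpa, Hjurp and the NDC80 complex, and partners named are the 3 most and 3 least negative. Ratios and the divisions of motif windows were picked after values were seen.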

Additional observations from a re-analysis of the deposited data

How the results depend on the processing

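With 1 library left out, between 16 and 38 of the 44 genes fell, and between 6 and 17 inner and 7 and 16 outer genes. The lowest counts came without heterozygous B, heterozygous A and knockout B (16, 19 and 20 genes), and the highest without knockout C. Each of these fits leaves out 1 library, so they do not differ in sample number. Of all tested rows 635, 906 and 697 were called in either direction in the 3 with the lowest counts, against 2883 with all libraries. The shares called lower were 2.55%, 3.19% and 3.23%, against 8.59% with all libraries. Without knockout A, knockout C and heterozygous C, 2230, 4019 and 2336 rows were called in either direction. Of these fits' rows 7.01%, 11.3% and 7.55% were called lower. Pseudocounts of 0.5 and 5, no filter, a mean of at least 50, and edgeR with TMM, RLE or upper-quartile scaling gave 35 or 36 genes. In these fits 1360 to 1647 rows were called lower, of 14135 to 31667 tested. DESeq2 gave 39 genes, adding Cenpo, Nsl1, Zwint and Bub3. It called 2100 of 31667 rows lower and 4364 in either direction. With the library letter as a replicate block 32 genes fell, without Cenpu, Cenpp and Dsn1, and 1205 of all 18227 tested rows were called lower. The letters did not pair the libraries (correlations of deviations of -0.07, 0.02 and -0.10 for A, B and C), so the lost calls are not read as weaker effects. No direction reversed. Of the single-gene results under these alternatives, 591 kept their side of the threshold, 59 lost it and 10 gained it. Depth set limits for few genes: the lowest value rested on 41 reads.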
